A study of Homo sapiens with 24 samples.

Results

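The genes of hyaluronan synthesis, breakdown and binding were followed through 3 knockdowns of FAM167A (also called DIORA1) in human neuroblastoma cell lines. There are 9 of them among the 58735, 61541 and 78932 genes listed in the SK-N-SH siRNA, SK-N-SH CRISPRi and SK-N-AS CRISPRi tables, and they were picked by function and symbol, with earlier results of these data known: the synthases HAS2 and HAS3, the breakdown genes CEMIP, HYAL1 and HYAL2, the receptors CD44 and HMMR, and the hyaluronan-binding matrix proteins VCAN and TNFAIP6. In the siRNA experiment, SK-N-SH cells given a pool of siRNAs against DIORA1 gave 5 knockdown libraries, and SK-N-SH cells given non-targeting siRNAs gave 5 control libraries. CRISPRi used SpCas9-KRAB, a Cas9 fused to a transcriptional repressor domain, with guides to DIORA1 in knockdown cells and the guide sgGal4 in control cells. SK-N-SH gave 3 knockdown and 3 control libraries and SK-N-AS 4 and 4. Per the series text, knockdown and control cells of a CRISPRi experiment share the repressor. Time after knockdown, and whether a CRISPRi line is a pool or a clone, are not given in the labels, nor whether replicates came from separate cultures, so p-values measure the spread between these libraries, which may be technical.

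Hyaluronan is a very long, unsulfated sugar polymer that synthases in the plasma membrane spin out of the cell while they add sugars from UDP-glucuronic acid and UDP-N-acetylglucosamine. Outside the cell it is held in place by receptors and by matrix proteins that bind along it, and it is cut first at the cell surface and then in lysosomes. Hyaluronan-rich matrix with versican surrounds neural crest cells, the lineage from which neuroblastoma arises, and CD44 is the receptor through which many adherent cells attach to and move over it.

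HAS3, CEMIP and CD44 were the 3 genes called in every experiment under every alternative analysis. The 250 bases before the RefSeq start site (GRCh38.p14, plus strand, 5′ to 3′) are shown for CEMIP, the gene with the largest fold change in both CRISPRi experiments, and for HAS3, which was called higher in each experiment; the window of CD44 lies wholly inside exons of annotated CD44 transcripts and is not printed. The CEMIP window is chr15:80779120-80779369, of which 27 bases fall in GENCODE 29 exons, and the HAS3 window is chr16:69107290-69107539, which lies in no exon but inside the span of the GENCODE HAS3 gene model. Capitals mark a TATA box (TATAAA).
CEMIP: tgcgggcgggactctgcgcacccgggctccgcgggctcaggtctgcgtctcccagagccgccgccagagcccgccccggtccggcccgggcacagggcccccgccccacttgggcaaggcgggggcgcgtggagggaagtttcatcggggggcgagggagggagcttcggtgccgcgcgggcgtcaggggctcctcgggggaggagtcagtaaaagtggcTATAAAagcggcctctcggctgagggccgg
HAS3: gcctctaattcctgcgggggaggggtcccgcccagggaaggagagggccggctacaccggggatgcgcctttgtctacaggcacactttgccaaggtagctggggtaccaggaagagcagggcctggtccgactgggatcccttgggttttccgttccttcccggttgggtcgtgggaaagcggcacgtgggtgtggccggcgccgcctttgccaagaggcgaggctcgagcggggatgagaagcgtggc
The search, on both strands, was for TATAAA, for the AP-1 motif TGANTCA, the TEAD motif GGAATG and the cell cycle element CHR, TTTGAA. CEMIP held TATAAA with its first base 30 bases before the RefSeq start, and HAS3 held none of the 4. The GENCODE 29 gene model of CEMIP starts at base 80779343, inside this TATAAA, so the distance depends on the start used. The RefSeq table had 8 of the 9 promoters; VCAN, HYAL1 and CD44 held none either, HYAL2 held GGAATG, TNFAIP6 held TGANTCA, and HMMR, a gene of dividing cells, held GGAATG and TTTGAA at 2 places each. Among the 35116 promoters of the table, 10.72% held TATAAA, 6.573% TGANTCA, 11.89% GGAATG and 13.32% TTTGAA, so a match is a description of letters and not of a bound factor.

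Levels are given as CPM, reads scaled to the TMM-adjusted library size, and fold changes as log2 of knockdown over control; a gene is called where its adjusted p is under 0.05. FAM167A itself stood at 63.4, 71.4, 57.7, 67.7 and 65.9 CPM in siRNA knockdown and at 187, 193, 168, 201 and 191 CPM in siRNA control libraries, leaving 34.7% of the control level. The CRISPRi libraries kept 1.33% in SK-N-SH and 10.7% in SK-N-AS, with no overlap between groups. Reads per library ranged from 71464698 to 90255175 (siRNA), 11690515 to 21628076 (SK-N-SH CRISPRi) and 29985858 to 104455853 (SK-N-AS CRISPRi), so low genes are least certain in SK-N-SH CRISPRi. Replicates of each group differed by more than sampling noise. In the siRNA knockdown group, replicates 3 and 4 stood apart from replicates 1, 2 and 5, with a chi-square per gene of 27.9 to 46.6 between these sets, against 7.94 between 3 and 4 and 11.2 to 19.4 among 1, 2 and 5. In the siRNA control group, replicate 5 differed from the others by 13.1 to 20.6, and the others from each other by 6.49 to 9.30. Without those 3 libraries, a choice made after seeing the data, the siRNA calls below stayed for CD44, HAS2, HAS3, CEMIP and VCAN and the call for HYAL2 was lost.

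Neuroblastoma lines hold cells on a scale from adrenergic (sympathetic neuroblast-like) to mesenchymal, and some markers of both states were called in each experiment. Over all tested genes, 27.7% were called higher and 28.0% lower in SK-N-SH CRISPRi. The shares were 15.2% and 15.5% in SK-N-AS CRISPRi and 2.55% and 6.98% with siRNA. In SK-N-SH CRISPRi, 5 of the 6 adrenergic markers (PHOX2A, HAND2, GATA3, ISL1, TH, DBH) were tested and all 5 fell, with a summed level of 652 to 694 CPM in knockdown and 1673 to 1746 CPM in control libraries. TH was near 0. Of the 7 mesenchymal markers (PRRX1, PRRX2, VIM, FN1, NOTCH2, SNAI2, TWIST1), 4 rose and 2, PRRX2 and TWIST1, fell, summing to 10569 to 11213 CPM in knockdown and 5656 to 6504 CPM in control libraries. Most of that sum is FN1 (5609 CPM in knockdown, 2467 CPM in control libraries) and VIM (3969 and 2768 CPM). All 6 fibroblast markers, which SK-N-SH cells also express, rose there, with sums of 10849.9 to 11472 CPM in knockdown and 4849.6 to 5627 CPM in control libraries. COL1A1, with 9721 CPM in knockdown and 4446 CPM in control libraries, was most of these sums. It was most of the siRNA sums too, with 2562 and 2226 CPM, and was not called there. With siRNA 4 of the 6 rose and 0 fell (2415 to 3479 CPM in knockdown and 2509.7 to 2618 CPM in control libraries), and in SK-N-AS 3 rose and 3 fell (1990.4 to 2051 CPM in knockdown and 2028 to 2080.4 CPM in control libraries). The epithelial markers KRT8 and KRT18 rose in SK-N-SH CRISPRi, KRT8 with 21.2 CPM in knockdown and 8.94 CPM in control libraries and KRT18 with 140.3 CPM in knockdown and 73.2 CPM in control libraries, while EPCAM and CDH1 were under 1 CPM. KRT18 also rose with siRNA, by a log2 fold change of 0.30 (edgeR, adjusted p = 0.00191). In SK-N-AS KRT8 rose by 0.18 (edgeR, adjusted p = 0.0105). KRT19 fell there, at -0.68 (edgeR, adjusted p = 0.0498), a call lost with RLE scaling (edgeR, adjusted p = 0.0506). In SK-N-AS CRISPRi 3 of 6 adrenergic markers, PHOX2A, ISL1 and DBH, fell (811 to 859 CPM in knockdown and 887 to 933 CPM in control libraries), and 3 of 7 mesenchymal markers rose and 2 fell (2395 to 2477 CPM in knockdown and 2266 to 2319.79 CPM in control libraries). In siRNA libraries 1 of the 5 adrenergic markers tested, ISL1, rose, or 4 with total counts (1753 to 1906 CPM in knockdown and 1680.3 to 1834 CPM in control libraries) and 2 of 7 mesenchymal markers, VIM and PRRX1, fell (2182 to 2458 CPM in knockdown and 2577 to 2719.93 CPM in control libraries). These counts had the same directions with RLE, upper-quartile and total-count scaling. What part these shifts have in the hyaluronan results was not tested, and in bulk RNA fewer cells of a type and less RNA per cell cannot be told apart.

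After siRNA knockdown CD44 fell to 30.7% of control, HAS2 and CEMIP fell by less, and HAS3 rose. Of the 9 genes, all tested, 1 was called higher and 5 lower (HAS2, CEMIP, HYAL2, CD44 and VCAN), where 2.55% of all 21018 tested genes were called higher and 6.98% lower, 9.53% in all. The median log2 fold change was -0.16 over the 9 genes and 0.01 over all tested genes. By 2-fold or more 0 of the 9 were called higher and 1, CD44, lower, where 0.0856% and 0.614% of all genes were. With upper-quartile scaling the genes called over the whole table were 933 higher and 1220 lower, with total counts 1315 and 1068, and with TMM 536 and 1468.

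After CRISPRi knockdown in the same line most of these genes were higher in knockdown: CEMIP rose 5.74-fold, HAS3 2.31-fold and VCAN 2.25-fold, and CD44, HAS2 and HYAL2 rose by less, while TNFAIP6 fell. Of the 8 genes tested, 6 were called higher and 1 lower, where 27.7% of all 15391 tested genes were called higher and 28.0% lower, 55.8% in all. The median log2 fold change was 0.36 over the 8 genes and -0.01 over all genes. By 2-fold or more 3 of the 8 were called higher and 1, TNFAIP6, lower, where 2.92% and 7.86% of all genes were. TNFAIP6 had passed the filter on low counts only through its control libraries, so its call carries little weight in these counts. Total-count scaling moved the median of all genes to -0.14 and the calls to 2791 higher and 6397 lower, against 4269 and 4313 with TMM. The direction of each called gene here stayed, but HAS2 and HYAL2 lost their calls.

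In SK-N-AS CRISPRi cells CEMIP rose 5.35-fold, TNFAIP6 1.67-fold and HAS2 1.64-fold, CD44, HAS3 and VCAN rose by less, and the lysosomal hyaluronidase HYAL1 fell 1.98-fold with a smaller fall of HYAL2. Of the 9 genes, all tested, 6 were called higher and 2 lower, where 15.2% of all 19277 tested genes were called higher and 15.5% lower, 30.6% in all. The median log2 fold change was 0.38 over the 9 genes and -0.0024 over all genes. By 2-fold or more 1, CEMIP, was called higher and 0 lower, where 1.90% and 1.09% of all genes were.

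**Figure D1:**
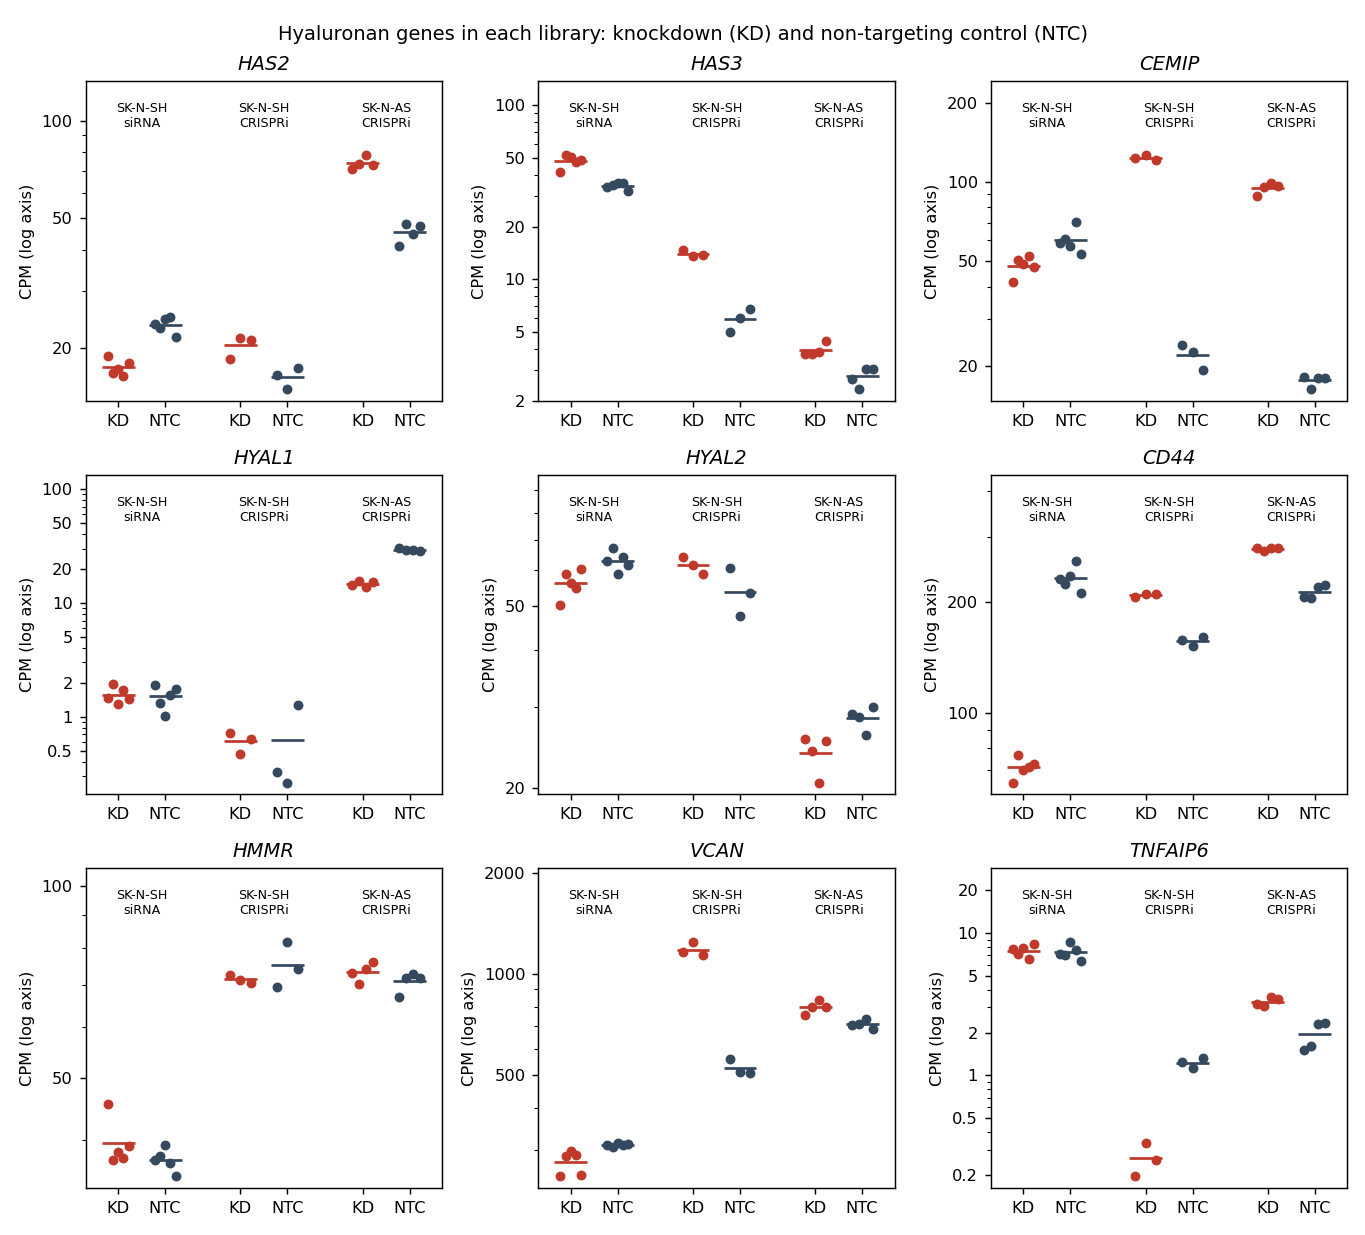
CPM of each gene in each library (points, log axis) with the group mean (line), knockdown left of control in each experiment. CEMIP lies between 88.3 and 127 CPM in both CRISPRi knockdown groups and between 16.3 and 24.1 CPM in their controls, while CD44 in siRNA knockdown, at 64.6 to 77.0 CPM, lies below every other group.

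HAS2 makes long hyaluronan chains and is the synthase of the embryonic neural crest and heart. HAS2 (ENSG00000170961, chr8:121612116-121641390, minus strand) has 1 transcript in GENCODE 29, the fewest of the 9 genes. In siRNA knockdown libraries it had 18.9, 16.7, 17.2, 16.4 and 18.0 CPM, against 23.7, 22.9, 24.5, 24.8 and 21.6 CPM in siRNA control libraries. Every knockdown library was below every control library, and HAS2 fell 1.35-fold, with a log2 fold change of -0.43 ± 0.06 (SE, edgeR, adjusted p = 9.29e-06). SK-N-SH CRISPRi gave the opposite order, with 18.4, 21.5 and 21.2 CPM in knockdown and 16.5, 14.9 and 17.4 CPM in control libraries. The groups did not overlap and the log2 fold change was 0.32 ± 0.09 (SE, edgeR, adjusted p = 0.00237). With total-count scaling it was 0.19 (edgeR, adjusted p = 0.0658). SK-N-AS had 71.2, 73.6, 78.5 and 72.8 CPM in knockdown and 41.0, 47.9, 44.8 and 47.5 CPM in control libraries. HAS2 rose there in all 4 knockdown libraries, by 0.71 ± 0.04 (SE, edgeR, adjusted p = 9.04e-16) on the log2 scale. Its antisense gene HAS2-AS1, which shares 201 exon bases with it, was not called in any experiment and reached 5.25 CPM in knockdown and 4.59 CPM in control libraries of SK-N-AS.

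HAS3 makes shorter chains than HAS2 and rose in all 3 experiments. HAS3 (ENSG00000103044, chr16:69105564-69118719, plus strand) had 41.5, 52.1, 50.5, 47.2 and 48.5 CPM in siRNA knockdown libraries and 34.1, 34.9, 35.7, 36.0 and 32.1 CPM in siRNA control libraries. The groups did not overlap, and the log2 fold change was 0.47 ± 0.06 (SE, edgeR, adjusted p = 1.96e-06). In SK-N-SH CRISPRi it had 14.7, 13.6 and 13.7 CPM in knockdown and 4.96, 6.01 and 6.79 CPM in control libraries, a 2.31-fold rise with a log2 fold change of 1.21 ± 0.12 (SE, edgeR, adjusted p = 2.04e-11). The lowest knockdown library, at 13.6 CPM, was far above the highest control library, at 6.79 CPM. In SK-N-AS the gene was low, with 3.72, 3.72, 3.83 and 4.42 CPM in knockdown and 2.66, 2.33, 3.03 and 3.04 CPM in control libraries, and the log2 fold change was 0.48 ± 0.11 (SE, edgeR, adjusted p = 0.00113). The groups did not overlap, and no alternative analysis ended a HAS3 call. HAS3 shares 365 exon bases with CHTF8 on the opposite strand, and whether reads were counted by strand is not stated in the labels. CHTF8 was not called in any experiment (edgeR, adjusted p = 0.650, 0.913 and 0.163).

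HAS2 and HAS3 moved apart in siRNA cells and in the same direction in both CRISPRi experiments. As a description chosen after the values were seen, with CPM divided by gene length, HAS2 made up 31.5% ± 2.97 of the summed HAS2 and HAS3 level in siRNA knockdown and 46.2% ± 0.581 in siRNA control libraries (SD, n = 5 each). In SK-N-SH CRISPRi the share was 64.7% ± 2.95 in knockdown and 77.7% ± 2.73 in control libraries (SD, n = 3 each). In SK-N-AS it was 96.0% ± 0.387 in knockdown and 95.4% ± 0.620 in control libraries (SD, n = 4 each), so HAS2 was nearly the whole of it in both groups. Shares of different experiments stand side by side only. HAS3 overlaps CHTF8, which was counted very differently between experiments, and what part that has in the HAS3 level was not tested. HAS1, the remaining synthase of the family, had at most 15 reads in all libraries of a group and was not tested.

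**Figure D2:**
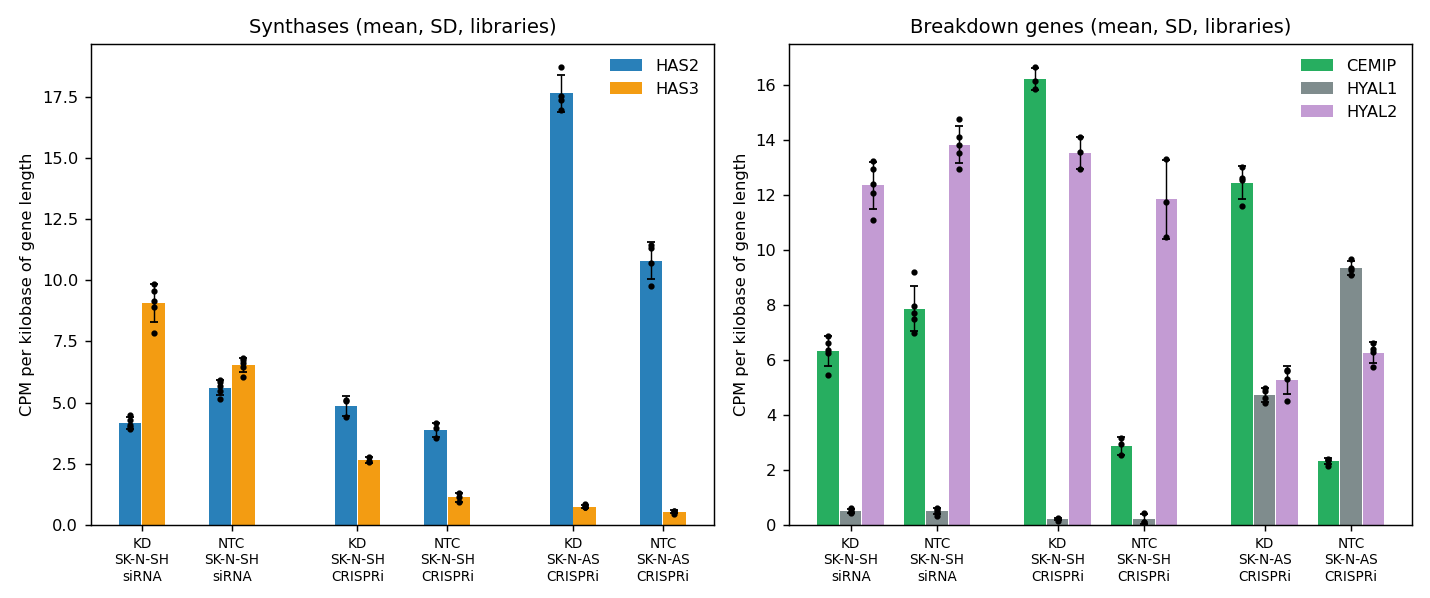
CPM per kilobase of gene length for the synthases (left) and the breakdown genes (right), as group means with SD and single libraries, knockdown left of control in each experiment. HAS3 lies above HAS2 in both siRNA groups and below it in all 4 CRISPRi groups, and CEMIP bars reach 16.2 and 12.4 in the CRISPRi knockdown groups, against 2.87 and 2.31 in their controls. Levels of different experiments stand side by side only, and HAS3 counts may hold reads of the overlapping gene CHTF8.

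CEMIP (also known as KIAA1199) is a secreted and membrane-associated protein that binds hyaluronan and is needed for its breakdown by skin fibroblasts. Its rise was the largest of the 9 genes in both CRISPRi experiments. CEMIP (ENSG00000103888, chr15:80779343-80951776, plus strand) had 123, 127 and 121 CPM in SK-N-SH CRISPRi knockdown and 24.1, 22.4 and 19.2 CPM in control libraries. That is a 5.74-fold rise, with a log2 fold change of 2.52 ± 0.06 (SE, edgeR, adjusted p = 1.12e-28). In SK-N-AS it had 88.3, 95.6, 99.0 and 96.3 CPM in knockdown and 18.1, 16.3, 18.0 and 18.0 CPM in control libraries, a 5.35-fold rise with a log2 fold change of 2.42 ± 0.04 (SE, edgeR, adjusted p = 1.33e-30). In both lines every knockdown library was several-fold above every control library. The siRNA libraries had 41.4, 50.5, 48.5, 52.4 and 47.6 CPM in knockdown and 58.7, 60.6, 57.0, 70.1 and 53.2 CPM in controls. These groups did not overlap, although the highest knockdown library lay close below the lowest control, and CEMIP fell, with a log2 fold change of -0.32 ± 0.07 (SE, edgeR, adjusted p = 0.00680). MESD, which shares 224 exon bases with CEMIP on the opposite strand, was not called in any experiment.

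HYAL1, the lysosomal hyaluronidase, was tested in 2 of the 3 experiments and fell in SK-N-AS. HYAL1 (ENSG00000114378, chr3:50299889-50312381, minus strand) had 14.4, 15.6, 13.9 and 15.2 CPM in SK-N-AS knockdown and 30.3, 28.99, 29.3 and 28.5 CPM in SK-N-AS control libraries. The fall was 1.98-fold, no knockdown library came near a control library, and the log2 fold change was -0.98 ± 0.05 (SE, edgeR, adjusted p = 2.75e-17). In siRNA cells it had 1.45, 1.94, 1.29, 1.72 and 1.43 CPM in knockdown and 1.90, 1.33, 1.01, 1.55 and 1.77 CPM in controls. These groups overlapped and the log2 fold change was 0.05 ± 0.18 (SE, edgeR, adjusted p = 0.911), with a 95% interval of -0.31 to 0.41. SK-N-SH CRISPRi libraries held 11, 7 and 10 reads in knockdown and 4, 4 and 29 reads in control libraries, too few for the gene to enter the test, and most control reads came from replicate 3.

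HYAL2 is anchored at the cell surface and cuts long hyaluronan into intermediate fragments. Its differences were small, and their direction differed between experiments. HYAL2 (ENSG00000068001, chr3:50317790-50322906, minus strand) had 50.3, 58.8, 56.3, 54.8 and 60.2 CPM in siRNA knockdown and 62.7, 67.0, 58.9, 64.1 and 61.4 CPM in siRNA control libraries. The groups overlapped, with a log2 fold change of -0.16 ± 0.05 (SE, edgeR, adjusted p = 0.0373). Over 19 alternatives the adjusted p of edgeR or DESeq2 ran from 0.0158 to 0.142. The call was lost with upper-quartile scaling (edgeR, adjusted p = 0.0691), with total counts (0.142), and without knockdown replicate 1 (0.0956), 3 (0.0650) or 4 (0.0667) or control replicate 1 (0.0744), 2 (0.132) or 4 (0.0991), or the 3 libraries that stood apart (0.0721). The replicate block ended it too. In SK-N-SH CRISPRi it had 64.1, 61.6 and 58.8 CPM in knockdown and 60.5, 47.5 and 53.4 CPM in control libraries. These groups overlapped too. The log2 fold change was 0.20 ± 0.06 (SE, edgeR, adjusted p = 0.0103), and the call was lost with total counts (edgeR, adjusted p = 0.346), without knockdown replicate 1 (0.0597) or without control replicate 2 (0.0704). In SK-N-AS it had 25.5, 24.1, 20.5 and 25.4 CPM in knockdown and 29.1, 28.6, 26.1 and 30.1 CPM in control libraries. There the groups did not overlap and no alternative ended the call, with a log2 fold change of -0.25 ± 0.06 (SE, edgeR, adjusted p = 8.51e-04). HYAL2 shares 509 exon bases on the same strand with TUSC2, so reads could be split between them. TUSC2 was not called (edgeR, adjusted p = 0.0578, 0.0652 and 0.0634).

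Per kilobase, CEMIP was 54.2% ± 1.03 of the summed level of CEMIP, HYAL1 and HYAL2 in SK-N-SH CRISPRi knockdown and 19.4% ± 2.35 in control libraries (SD, n = 3 each). The SK-N-AS shares were 55.5% ± 2.599 in knockdown and 12.9% ± 0.608 in control libraries (SD, n = 4 each), and the siRNA shares 32.9% ± 1.51 in knockdown and 35.4% ± 2.08 in control libraries (SD, n = 5 each). Of these genes CEMIP led in both CRISPRi knockdown groups, while HYAL2 led in both siRNA groups and in SK-N-SH CRISPRi controls, and HYAL1 led in SK-N-AS controls. Other breakdown genes are outside these shares. Among them CEMIP2 had 113 CPM in knockdown and 122 CPM in control libraries of SK-N-AS, not divided by length. CEMIP had 94.8 and 17.6 CPM there. These shares were chosen after the values were seen and are given as a description.

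CD44 is the main surface receptor for hyaluronan and links it to the actin cytoskeleton. It had the widest fall of the 9 genes in siRNA cells and modest rises with CRISPRi. CD44 (ENSG00000026508, chr11:35138870-35232402, plus strand) had 64.6, 77.0, 69.9, 71.2 and 72.5 CPM in siRNA knockdown and 230.2, 224, 235, 257 and 211 CPM in siRNA control libraries. The groups lay far apart, with CD44 at 30.7% of control, a 3.26-fold fall and a log2 fold change of -1.70 ± 0.05 (SE, edgeR, adjusted p = 1.04e-15). By size of log2 fold change it ranked 28 of the 21018 tested genes. In SK-N-SH CRISPRi it had 206, 209.9 and 209.9 CPM in knockdown and 158, 152 and 160.3 CPM in control libraries. CD44 rose there in all 3 knockdown libraries, with a log2 fold change of 0.41 ± 0.04 (SE, edgeR, adjusted p = 2.78e-11). In SK-N-AS it had 279, 275, 279 and 279 CPM in knockdown and 206, 205, 219 and 221 CPM in control libraries. The knockdown values fell in a narrow band above all controls, and the log2 fold change was 0.38 ± 0.03 (SE, edgeR, adjusted p = 1.11e-13). GENCODE 29 lists 39 CD44 transcripts, 26 of them coding. Counts per gene do not separate the standard form from the variant exon forms.

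HMMR, a spindle protein that also binds hyaluronan (RHAMM), is made in dividing cells. It was not called in any experiment. HMMR (ENSG00000072571, chr5:163460203-163491945, plus strand) had 45.5, 37.3, 38.4, 37.5 and 39.1 CPM in siRNA knockdown and 37.2, 37.7, 39.3, 36.8 and 35.1 CPM in siRNA control libraries. Knockdown replicate 1 stood above the other knockdown libraries, the groups overlapped, and the log2 fold change was 0.09 ± 0.05 (SE, edgeR, adjusted p = 0.378), with a 95% interval of -0.03 to 0.20. SK-N-SH CRISPRi gave 72.5, 71.1 and 70.5 CPM in knockdown and 69.5, 81.8 and 74.2 CPM in control libraries, with a log2 fold change of -0.08 ± 0.05 (SE, edgeR, adjusted p = 0.218) and a 95% interval of -0.18 to 0.03. With total counts it was called lower, at -0.21 (edgeR, adjusted p = 0.00104). SK-N-AS gave 73.0, 70.2, 74.1 and 76.0 CPM in knockdown and 67.0, 71.8, 72.9 and 71.7 CPM in control libraries, with a log2 fold change of 0.05 ± 0.04 (SE, edgeR, adjusted p = 0.325) and a 95% interval of -0.02 to 0.12. The groups overlapped in both CRISPRi experiments.

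Other genes of mitosis were measured beside HMMR. Of 24 such genes, all tested, 7 rose and 0 fell in siRNA cells, where 2.55% and 6.98% of all genes did, among them the spindle gene ASPM, with a log2 fold change of 0.22 ± 0.04 (SE, edgeR, adjusted p = 2.64e-04), and the kinetochore gene CENPF, with 0.23 ± 0.05 (SE, edgeR, adjusted p = 0.00185). Without the 3 siRNA libraries that stood apart, 4 rose and 0 fell, and with total counts 11 and 0. In SK-N-SH CRISPRi 1 rose and 13 fell, where 27.7% and 28.0% of all genes did, among them the checkpoint kinase BUB1B, with a log2 fold change of -0.31 ± 0.05 (SE, edgeR, adjusted p = 6.50e-07), and the kinase AURKB, with -0.37 ± 0.06 (SE, edgeR, adjusted p = 7.85e-07). Total-count scaling made this 0 and 22. In SK-N-AS, where 15.2% of all genes rose and 15.5% fell, 1 rose, the cytokinesis gene ANLN, with a log2 fold change of 0.14 ± 0.03 (SE, edgeR, adjusted p = 3.24e-04), and 5 fell, among them the spindle gene DLGAP5, with -0.16 ± 0.03 (SE, edgeR, adjusted p = 3.74e-04). The median log2 fold changes of the 24 genes were 0.06, -0.12 and -0.03 in the siRNA, SK-N-SH CRISPRi and SK-N-AS CRISPRi experiments.

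VCAN encodes versican, a large proteoglycan whose head domain binds hyaluronan. VCAN (ENSG00000038427, chr5:83471465-83582303, plus strand) had 1160.3, 1247 and 1137 CPM in SK-N-SH CRISPRi knockdown and 558, 513 and 507 CPM in control libraries. The lowest knockdown library lay far above the highest control, and VCAN rose 2.25-fold, with a log2 fold change of 1.17 ± 0.04 (SE, edgeR, adjusted p = 5.27e-23). In SK-N-AS it had 755, 800.2, 836 and 796 CPM in knockdown and 704, 709, 735 and 688 CPM in control libraries. The groups did not overlap, but the rise was small, at 0.17 ± 0.03 (SE, edgeR, adjusted p = 4.58e-06) on the log2 scale. In siRNA cells it had 251, 289, 298, 289 and 253 CPM in knockdown and 311, 306, 314, 312 and 314 CPM in controls. The controls lay within a narrow band above all knockdown libraries, and VCAN fell, with a log2 fold change of -0.17 ± 0.05 (SE, edgeR, adjusted p = 0.0202). That siRNA call was lost with upper-quartile scaling (edgeR, adjusted p = 0.0606), with total counts (0.141), without knockdown replicate 5 (0.0554) and without control replicate 4 (0.0521). VCAN-AS1, on the opposite strand, was at or under 0.174 CPM in every group and was not tested.

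TNFAIP6 encodes TSG-6, a secreted protein induced in inflammation that moves heavy chains of inter-alpha-inhibitor onto hyaluronan. Its estimates had opposite signs in the CRISPRi experiments, with few reads in SK-N-SH. TNFAIP6 (ENSG00000123610, chr2:151357592-151380048, plus strand) held 3, 5 and 4 reads in SK-N-SH CRISPRi knockdown and 15, 17 and 30 reads in control libraries, or 0.196, 0.337 and 0.255 CPM in knockdown and 1.24, 1.12 and 1.32 CPM in control libraries. All knockdown libraries lay below all controls, with a log2 fold change of -2.21 ± 0.41 (SE, edgeR). The gene passed the filter on low counts only through its control libraries, so its call carries little weight and no p is given for it. In SK-N-AS it had 3.15, 3.09, 3.54 and 3.43 CPM in knockdown and 1.52, 1.60, 2.30 and 2.34 CPM in control libraries. It rose in all 4 knockdown libraries, with a log2 fold change of 0.74 ± 0.14 (SE, edgeR, adjusted p = 6.14e-05). In siRNA cells it had 7.76, 7.12, 7.80, 6.55 and 8.37 CPM in knockdown and 7.14, 7.06, 8.70, 7.63 and 6.40 CPM in controls. These groups overlapped, with a log2 fold change of 0.03 ± 0.09 (SE, edgeR, adjusted p = 0.907) and a 95% interval of -0.16 to 0.21.

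**Figure D3:**
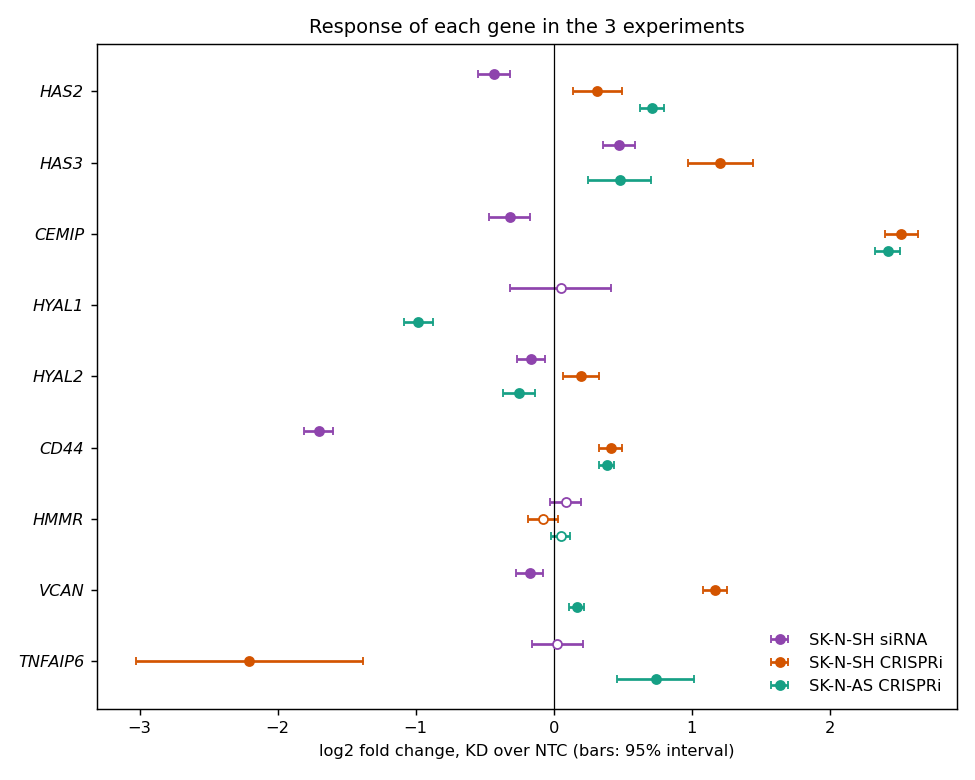
log2 fold change of each gene, knockdown over control, in the 3 experiments, with 95% intervals from the edgeR fit; filled points have an adjusted p under 0.05, and HYAL1 was not tested in SK-N-SH CRISPRi. CD44, HAS2, CEMIP and VCAN lie left of 0 with siRNA and right of 0 with CRISPRi, HAS3 lies right of 0 throughout, and TNFAIP6 lies on opposite sides in the CRISPRi experiments. TNFAIP6 is drawn filled in SK-N-SH CRISPRi although it passed the filter on low counts only through its control libraries.

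Whether the responses differed was tested as an interaction, each experiment against its own controls. Between SK-N-SH CRISPRi and SK-N-SH siRNA, 7 of the 9 genes were called, 6 higher and 1 lower, where 15.1% of 23287 genes were called higher and 16.4% lower, 31.4% in all. The log2 difference, CRISPRi minus siRNA, was 2.82 ± 0.12 (SE, edgeR, adjusted p = 3.71e-15) for CEMIP, the largest in size of the 9, and 2.11 ± 0.08 (SE, edgeR, adjusted p = 6.04e-21) for CD44. VCAN differed by 1.33 ± 0.07 (SE, edgeR, adjusted p = 2.11e-16), HAS2 by 0.74 ± 0.11 (SE, edgeR, adjusted p = 1.56e-06) and HYAL2 by 0.35 ± 0.09 (SE, edgeR, adjusted p = 0.00209). For HAS3, called higher in both, the CRISPRi response was the larger by 0.72 ± 0.13 (SE, edgeR, adjusted p = 3.12e-05). The TNFAIP6 difference was -2.27 ± 0.38 (SE, edgeR). It rests on 12 knockdown and 62 control reads in SK-N-SH CRISPRi, so its call carries little weight and no p is given. HMMR gave -0.17 (edgeR, adjusted p = 0.146, 95% interval -0.35 to 0.01) and HYAL1 -0.27 (edgeR, adjusted p = 0.785, 95% interval -1.31 to 0.76). Without SK-N-SH CRISPRi control replicate 3 the HYAL1 difference was 1.00 (edgeR, adjusted p = 0.231), of the opposite sign and not called. The experiments differ in method, library kit and depth as well as in how much FAM167A RNA was left, and these cannot be told apart. With total counts the median difference over all genes moved to -0.22, the calls to 2243 higher and 6080 lower, against 3506 and 3811 with TMM, the HYAL2 call was lost and HMMR was called lower, at -0.34 (edgeR, adjusted p = 0.00194). The other calls stayed.

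Between SK-N-AS and SK-N-SH CRISPRi, 5 of the 9 genes were called, 2 higher and 3 lower, where 14.7% of 19862 genes were called higher and 16% lower, 30.7% in all. The log2 difference, SK-N-AS minus SK-N-SH, was 2.96 ± 0.44 (SE, edgeR) for TNFAIP6. That value rests on the same few SK-N-SH reads, so its call carries little weight and no p is given. For HAS2 the log2 difference was 0.39 ± 0.10 (SE, edgeR, adjusted p = 0.00170). It was -1.02 ± 0.05 (SE, edgeR, adjusted p = 2.53e-21) for VCAN, -0.75 ± 0.17 (SE, edgeR, adjusted p = 4.62e-04) for HAS3 and -0.46 ± 0.10 (SE, edgeR, adjusted p = 2.62e-04) for HYAL2. No difference was called for CD44, -0.04 (edgeR, adjusted p = 0.581, 95% interval -0.14 to 0.06), or for CEMIP, -0.11 (edgeR, adjusted p = 0.310, 95% interval -0.27 to 0.05). HMMR gave 0.11 (edgeR, adjusted p = 0.207, 95% interval -0.02 to 0.24) and HYAL1 -0.73 (edgeR, adjusted p = 0.211, 95% interval -1.58 to 0.13). Without SK-N-SH CRISPRi control replicate 3, which holds most of the HYAL1 control reads, the HYAL1 difference was -2.06 (edgeR, adjusted p = 0.00127). With total counts the median over all genes moved to 0.15, the calls to 4932 higher and 1813 lower, against 2920 and 3178 with TMM, and HMMR was called higher. FAM167A had log2 fold changes of -3.22 in SK-N-AS and -6.23 in SK-N-SH, and a difference of line and one of knockdown depth cannot be told apart. The 2 interaction tests share the SK-N-SH CRISPRi libraries.

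Per kilobase of gene length, taken from the siRNA table for all experiments, VCAN was the most abundant of the 9 genes in 5 of the 6 groups and CD44 in the siRNA controls. The tables were scaled separately, so levels stand side by side only. In siRNA knockdown the order was VCAN (18.6), HYAL2 (12.3), HMMR (10.04), HAS3 (9.07), CD44 (7.10), CEMIP (6.31), TNFAIP6 (4.76), HAS2 (4.16) and HYAL1 (0.499), in mean CPM per kilobase. In siRNA controls CD44 (23.1) and VCAN (21.0) overlapped at the top. CD44 stood below HAS3 in knockdown, where it overlapped with CEMIP, and at the top in controls; the ranges of HYAL2 and HMMR, of HMMR and HAS3, and of TNFAIP6 and HAS2 also overlapped in knockdown. SK-N-SH CRISPRi knockdown gave VCAN (79.7), CD44 (20.8), HMMR (18.1), CEMIP (16.2) and HYAL2 (13.5) as its first 5, none overlapping, and its controls VCAN (35.5), HMMR (19.1), CD44 (15.7), HYAL2 (11.8) and HAS2 (3.88). SK-N-AS knockdown gave VCAN (53.7), CD44 (27.8), HMMR (18.6), HAS2 (17.7) and CEMIP (12.4), with HMMR and HAS2 overlapping, and its controls VCAN (47.8), CD44 (21.3), HMMR (18.0), HAS2 (10.8) and HYAL1 (9.34). CEMIP, among the first 5 in both CRISPRi knockdown groups, was below the first 5 in both control groups.

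A list of 49 other hyaluronan genes was read in the same fits. In siRNA cells 40 were tested and 3 were called higher and 6 lower, where 2.55% and 6.98% of all genes were, with a median log2 fold change of -0.014. In SK-N-SH CRISPRi 30 were tested and 17 were called higher and 4 lower, where 27.7% and 28.0% of all genes were, with a median of 0.32. The 17 include TLR4 and the 4 include BCAN. These passed the filter on low counts through their knockdown and control libraries, respectively, so their calls carry little weight. In SK-N-AS 30 were tested and 14 were called higher and 6 lower, where 15.2% and 15.5% of all genes were, with a median of 0.18. With total counts the SK-N-SH CRISPRi calls were 13 higher and 9 lower. Levels of these genes are group means, with the error given on the fold change.

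Among 7 genes that supply the sugar precursors, 3 of 6 tested rose in SK-N-SH CRISPRi, where 55.8% of all genes were called, and 3 of 7 rose and 1, GNPNAT1, fell in SK-N-AS, where 30.6% were. UGP2, which makes UDP-glucose, had in SK-N-SH CRISPRi 129 CPM in knockdown against 79.4 CPM in control libraries, a log2 fold change of 0.70 ± 0.05 (SE, edgeR, adjusted p = 3.35e-16). The SK-N-AS values were 99.2 CPM in knockdown against 77.9 CPM in control libraries, a log2 fold change of 0.35 ± 0.03 (SE, edgeR, adjusted p = 8.01e-11). PGM3, of the UDP-N-acetylglucosamine route, had log2 fold changes of 0.15 ± 0.05 (SE, edgeR, adjusted p = 0.0108) in SK-N-SH CRISPRi and 0.34 ± 0.03 (SE, edgeR, adjusted p = 3.49e-10) in SK-N-AS. GFPT1, which starts that route, had 0.12 ± 0.05 (SE, edgeR, adjusted p = 0.0496) in SK-N-SH CRISPRi. The GFPT1 call was lost with upper-quartile scaling (edgeR, adjusted p = 0.0816) and with DESeq2 (adjusted p = 0.119). With total counts PGM3 was at 0.02 and GFPT1 at -0.01 there, neither called. GFPT2, another enzyme of the same step, had in SK-N-AS 12.01 CPM in knockdown against 6.21 CPM in control libraries, a log2 fold change of 0.95 ± 0.07 (SE, edgeR, adjusted p = 2.88e-13). With siRNA GFPT2 was the only gene of the 7 called, with 3.03 CPM in knockdown against 4.53 CPM in control libraries, a log2 fold change of -0.58 ± 0.13 (SE, edgeR, adjusted p = 0.00302). UGDH, which makes UDP-glucuronic acid, was not called anywhere.

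Of the 6 further breakdown genes, 4 were tested in each experiment and none of them was called with siRNA, where 9.53% of all genes were. The lysosomal hexosaminidase gene HEXA, whose enzyme trims hyaluronan fragments, rose in both CRISPRi experiments, by 0.72 ± 0.05 (SE, edgeR, adjusted p = 9.40e-16) in SK-N-SH and 0.24 ± 0.03 (SE, edgeR, adjusted p = 6.71e-07) in SK-N-AS on the log2 scale. CEMIP2 (TMEM2), a surface protein related to CEMIP, rose in SK-N-SH CRISPRi, with 30.6 CPM in knockdown against 15.9 CPM in control libraries, a log2 fold change of 0.95 ± 0.08 (SE, edgeR, adjusted p = 7.35e-13). In SK-N-AS CEMIP2 fell slightly, with a log2 fold change of -0.11 ± 0.03 (SE, edgeR, adjusted p = 0.00375), and GUSB, a lysosomal glucuronidase, fell too, with a log2 fold change of -0.16 ± 0.04 (SE, edgeR, adjusted p = 0.00110). HYAL3 fell there, with a log2 fold change of -0.27 ± 0.10 (SE, edgeR, adjusted p = 0.0404), a call that DESeq2 did not make (adjusted p = 0.0506). HYAL3 also fell in SK-N-SH CRISPRi, with 4.65 CPM in knockdown against 6.39 CPM in control libraries, a log2 fold change of -0.47 ± 0.14 (SE, edgeR, adjusted p = 0.00513). HYAL4 and SPAM1, at 0.154 CPM or less in every group, were not tested.

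Of 6 other receptors, LAYN (layilin), a membrane protein that binds hyaluronan, rose in both CRISPRi experiments. In SK-N-SH it had 291 CPM in knockdown against 167 CPM in control libraries, a log2 fold change of 0.79 ± 0.04 (SE, edgeR, adjusted p = 9.89e-20). The SK-N-AS values were 23.2 CPM in knockdown against 11.9 CPM in control libraries, a log2 fold change of 0.97 ± 0.05 (SE, edgeR, adjusted p = 1.21e-16). TLR2 and TLR4, innate immune receptors that hyaluronan fragments are reported to engage, rose in SK-N-AS by 0.30 ± 0.08 (SE, edgeR, adjusted p = 0.00257) and 0.27 ± 0.05 (SE, edgeR, adjusted p = 6.45e-05) on the log2 scale. TLR4 in SK-N-SH CRISPRi held 44 reads in knockdown and 2 reads in control libraries, a ratio of 24.01 with a 95% exact counting interval of 6.26 to 204 that covers counting error over summed reads only. It passed the filter on low counts through its knockdown libraries, so no p is given for it. With siRNA TLR2 fell at a very low level, with 0.366 CPM in knockdown against 0.790 CPM in control libraries, a log2 fold change of -1.11 ± 0.26 (SE, edgeR, adjusted p = 0.00712). LYVE1, the lymphatic receptor, was near 0 in every group and was not tested.

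Link proteins and the other lecticans, which tie proteoglycans to hyaluronan, gave 3 calls among 4 genes tested in SK-N-SH CRISPRi and 1 among 5 with siRNA. Of all genes 55.8% and 9.53% were called there. In SK-N-SH CRISPRi HAPLN1, the cartilage link protein, had 77.1 CPM in knockdown against 17.3 CPM in control libraries, a log2 fold change of 2.16 ± 0.06 (SE, edgeR, adjusted p = 1.29e-26), a 4.46-fold rise with no overlap. The brain lecticans NCAN and BCAN fell, NCAN with 4.22 CPM in knockdown against 13.6 CPM in control libraries, a log2 fold change of -1.71 ± 0.12 (SE, edgeR, adjusted p = 7.70e-15), and BCAN with 0.570 CPM in knockdown against 1.57 CPM in control libraries, a log2 fold change of -1.42 ± 0.34 (SE, edgeR). BCAN held 26 reads in knockdown and 76 reads in control libraries. It passed the filter on low counts through its control libraries, so no p is given for it. HAPLN3, a link protein of wider expression, rose with siRNA, by 0.32 ± 0.09 (SE, edgeR, adjusted p = 0.0174) on the log2 scale, a call that was lost without the 3 siRNA libraries that stood apart (edgeR, adjusted p = 0.158). In SK-N-AS HAPLN3 had 0.23 ± 0.16 (SE, edgeR, adjusted p = 0.299) and BCAN 0.16 ± 0.19 (SE, edgeR, adjusted p = 0.594), and the other 5 genes were not tested. PTX3, a pentraxin that cross-links hyaluronan together with TSG-6 and heavy chains, fell with siRNA and rose in both CRISPRi experiments, as HAS2 did. With siRNA it had 37.0 CPM in knockdown against 53.1 CPM in control libraries, a log2 fold change of -0.52 ± 0.09 (SE, edgeR, adjusted p = 0.00103). In SK-N-SH CRISPRi it had 92.8 CPM in knockdown against 54.7 CPM in control libraries, a log2 fold change of 0.76 ± 0.05 (SE, edgeR, adjusted p = 2.62e-16). The SK-N-AS values were 217 CPM in knockdown against 139 CPM in control libraries, a log2 fold change of 0.64 ± 0.03 (SE, edgeR, adjusted p = 3.29e-19). The heavy-chain gene ITIH3 rose at a low level in SK-N-SH CRISPRi, by 0.48 ± 0.18 (SE, edgeR, adjusted p = 0.0251) on the log2 scale, a call that was lost with total counts (edgeR, adjusted p = 0.0988) and with DESeq2 (adjusted p = 0.0866).

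Among 8 partners, sheddases and splicing regulators of CD44, 0 of 7 tested rose and 3 fell with siRNA, 4 of 6 rose and 0 fell in SK-N-SH CRISPRi, and 3 of 7 rose and 1 fell in SK-N-AS, where 9.53%, 55.8% and 30.6% of all genes were called in either direction. MMP14, a membrane protease that can cut CD44, had with siRNA 127 CPM in knockdown against 216 CPM in control libraries, a log2 fold change of -0.76 ± 0.05 (SE, edgeR, adjusted p = 4.67e-10). In SK-N-SH CRISPRi it had 196 CPM in knockdown against 95.9 CPM in control libraries, a log2 fold change of 1.03 ± 0.04 (SE, edgeR, adjusted p = 9.47e-22), and in SK-N-AS 159 CPM in knockdown against 176 CPM in control libraries, a log2 fold change of -0.15 ± 0.03 (SE, edgeR, adjusted p = 7.72e-05). MSN (moesin), which joins the CD44 tail to actin, had log2 fold changes of -0.28 ± 0.04 (SE, edgeR, adjusted p = 7.07e-05) with siRNA, 0.87 ± 0.04 (SE, edgeR, adjusted p = 6.88e-19) in SK-N-SH CRISPRi and 0.14 ± 0.02 (SE, edgeR, adjusted p = 8.47e-06) in SK-N-AS. RDX (radixin), of the same family, had -0.20 ± 0.05 (SE, edgeR, adjusted p = 0.0137) with siRNA, a call that total counts ended (edgeR, adjusted p = 0.0544), 0.30 ± 0.05 (SE, edgeR, adjusted p = 6.41e-07) in SK-N-SH CRISPRi and 0.14 ± 0.04 (SE, edgeR, adjusted p = 0.00577) in SK-N-AS, and EZR (ezrin) was not called anywhere. The sheddase ADAM10 rose in both CRISPRi experiments, by 0.18 ± 0.04 (SE, edgeR, adjusted p = 4.04e-04) in SK-N-SH and 0.26 ± 0.03 (SE, edgeR, adjusted p = 2.57e-08) in SK-N-AS, but with total counts it was not called in SK-N-SH (edgeR, adjusted p = 0.308). ESRP1, a splicing regulator of the CD44 variant exons, had 0 reads in all 24 libraries.

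Among 6 proteases that cut versican, ADAMTS15 rose in all 3 experiments. With siRNA it had 1.92 CPM in knockdown against 0.985 CPM in control libraries, a log2 fold change of 0.96 ± 0.17 (SE, edgeR, adjusted p = 4.81e-04). Its log2 fold change was 0.72 ± 0.18 (SE, edgeR, adjusted p = 6.26e-04) in SK-N-SH CRISPRi and 0.98 ± 0.10 (SE, edgeR, adjusted p = 3.98e-10) in SK-N-AS. In SK-N-SH CRISPRi, where VCAN rose, ADAMTS9 had 65.3 CPM in knockdown against 221 CPM in control libraries, a log2 fold change of -1.76 ± 0.05 (SE, edgeR, adjusted p = 1.95e-28). In SK-N-AS ADAMTS9 rose, with 905 CPM in knockdown against 768 CPM in control libraries, a log2 fold change of 0.24 ± 0.02 (SE, edgeR, adjusted p = 7.63e-10). ADAMTS1 rose in both CRISPRi experiments, by 0.37 ± 0.05 (SE, edgeR, adjusted p = 1.04e-08) in SK-N-SH and 0.56 ± 0.05 (SE, edgeR, adjusted p = 1.84e-11) in SK-N-AS, while ADAMTS4 rose in SK-N-SH CRISPRi, by 0.65 ± 0.08 (SE, edgeR, adjusted p = 6.94e-09), and fell in SK-N-AS, with a log2 fold change of -0.54 ± 0.05 (SE, edgeR, adjusted p = 4.68e-11). ADAMTS5 rose with siRNA, by 0.38 ± 0.07 (SE, edgeR, adjusted p = 6.92e-04).

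**Figure D4:**
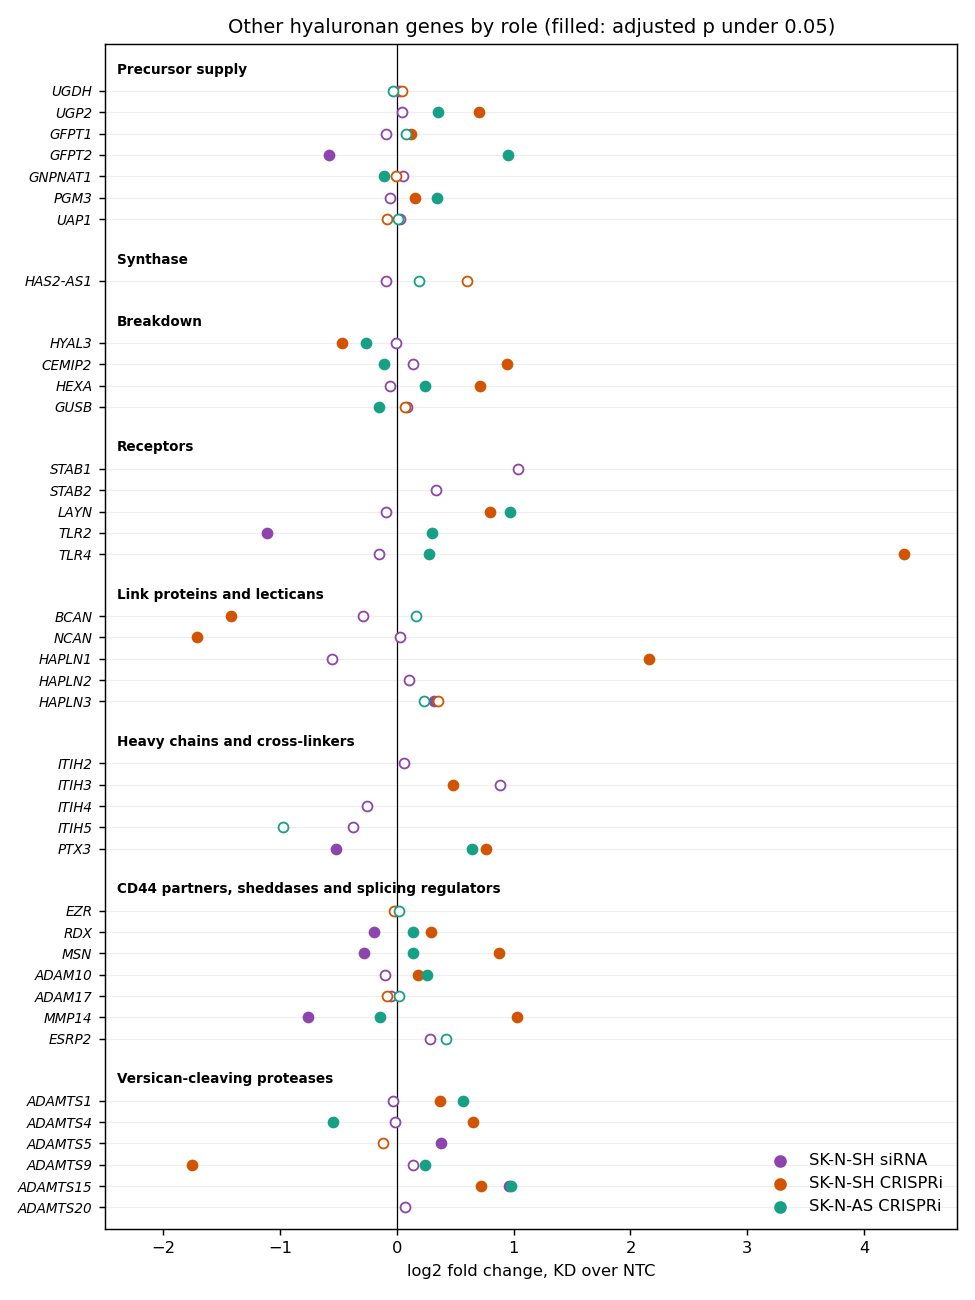
log2 fold change, knockdown over control, of each tested gene among the 49 other hyaluronan genes, by role and experiment; filled points have an adjusted p under 0.05. The SK-N-SH CRISPRi points of HAPLN1 and TLR4 lie far to the right and those of NCAN, BCAN and ADAMTS9 far to the left, and PTX3 lies left of 0 with siRNA and right of 0 with CRISPRi. TLR4 and BCAN are drawn filled there although they passed the filter on low counts only through the group where they are high.

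The genes whose levels ran most like each of the 8 genes tested in every experiment were found by Pearson's r of log2 CPM, each library taken relative to the mean of its own controls, over 24 libraries and 13942 genes. The points share 3 sets of controls and the knockdown itself, so r is a description. Nearest to CD44 were PLAUR (r = 0.991), GEM (r = 0.988) and ITGA6 (r = 0.985). The log2 fold changes of PLAUR, the urokinase receptor, were -1.21, 0.29 and 0.28 in the siRNA, SK-N-SH CRISPRi and SK-N-AS CRISPRi experiments. Nearest to HAS2 were NAMPT (r = 0.970), RAB31 (r = 0.969) and SEL1L3 (r = 0.969). HAS3 ran most like COL5A1 (r = 0.944), TNS3 (r = 0.943) and COL16A1 (r = 0.937), with log2 fold changes of 0.42, 1.29 and 0.47 for COL5A1, a fibrillar collagen chain. CEMIP ran most like ROBO1 (r = 0.987), TGM2 (r = 0.986) and LAYN (r = 0.984), the last of these the receptor described above, and VCAN like MEF2D (r = 0.988), IQGAP1 (r = 0.985) and SORT1 (r = 0.982). TNFAIP6 ran most like ITGA9 (r = 0.971), PIM1 (r = 0.970) and RRAGD (r = 0.966). In SK-N-SH CRISPRi TNFAIP6 had only 12 knockdown reads and passed the filter through its control libraries, so these r carry little weight. ITGA9, an integrin chain, had log2 fold changes of 0.05, -2.51 and 1.01 in the same order. HYAL2 ran most like HAGH (r = 0.951), BCAR1 (r = 0.911) and YIF1A (r = 0.910). HMMR had the lowest r with its nearest genes, CBX3 (r = 0.895), RSF1 (r = 0.873) and EIF3J (r = 0.858).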

How the data were processed

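RNA sequencing of 24 libraries in 6 groups was used. The authors deposited raw read counts per gene, 1 table for each experiment, all whole numbers. The submitters' processing notes name featureCounts 1.5.1, STAR 2.6.1d, CASAVA, FastQC 0.11.8, bcl2fastq 2.20.0.422 and 2.20, and the build GRCh38. The labels do not state which tool served which experiment, the annotation release or the strand setting. Per the labels' protocols, CRISPRi libraries used a stranded kit, and the siRNA protocol names stranded and non-stranded kits.

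Each experiment was fitted alone, knockdown against its controls, in R 4.3.3 with edgeR 4.0.16: filterByExpr (minimum count 10, minimum total 15), which kept 21018, 15391 and 19277 genes, TMM scaling, robust glmQLFit and the two-sided quasi-likelihood test, with Benjamini-Hochberg adjustment over all genes tested and calls at an adjusted p under 0.05. Differences in response were interaction terms over 2 experiments. Alternatives were other scalings, filters, DESeq2 1.42.0, a replicate block and libraries left out. Gene lists were recounted under the scalings, DESeq2 and without 3 siRNA libraries, chosen after seeing the data. The scripts were tested on simulated data. CPM uses TMM-scaled library sizes; log2 CPM for likenesses used a prior count of 2. Gene lengths and coordinates are those of the siRNA table; overlaps are from GENCODE 29 and promoters from RefSeq (GRCh38.p14).

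The 9 genes, the lists of 49 hyaluronan, 24 mitosis and 34 marker genes, and the tests were chosen with earlier results of these data known. Named were all 9 genes, FAM167A, up to 3 called genes per role and experiment with the smallest adjusted p, the 2 most significant mitosis genes per experiment and the 3 nearest genes by r; UGDH, EZR, HAS1, HAS2-AS1, HYAL3, GNPNAT1, HYAL4, SPAM1, LYVE1, ESRP1 and the overlapping genes were added for their roles. A few listed genes are not reported here and are in none of these counts and sums.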

Additional observations from a re-analysis of the deposited data

Results flagged for a closer look

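A library stood apart from its group, by a gap test of the most extreme value, in 4 of 40 groups of 4 or 5 libraries, where chance gives about 1 in 20. These were CD44 in SK-N-AS CRISPRi knockdown replicate 2 (274.9 CPM, below the other 3 libraries), HAS3 in SK-N-AS CRISPRi knockdown replicate 4 (4.42 CPM), CEMIP in SK-N-AS CRISPRi control replicate 2 (16.3 CPM) and HMMR in SK-N-SH siRNA knockdown replicate 1 (45.5 CPM). The call of each gene in that experiment, or its absence, was the same without that library.

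Responses that differed between experiments by the interaction test were, for SK-N-SH CRISPRi minus SK-N-SH siRNA in log2 units, CD44 (2.11), HAS2 (0.74), HAS3 (0.72), CEMIP (2.82), HYAL2 (0.35), VCAN (1.33) and TNFAIP6 (-2.27). For SK-N-AS CRISPRi minus SK-N-SH CRISPRi they were HAS2 (0.39), HAS3 (-0.75), HYAL2 (-0.46), VCAN (-1.02) and TNFAIP6 (2.96). Both TNFAIP6 values rest on few SK-N-SH CRISPRi reads, so they carry little weight. CD44 and CEMIP, which differed between the siRNA and CRISPRi responses in SK-N-SH, gave no called difference between the CRISPRi lines.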

How the results depend on the processing

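Over 752 gene-level values under alternative settings, 729 kept their side of the threshold, 19 called values were no longer past it, 4 passed it newly and 0 called values changed sign. The number of genes called in either direction, over all genes and over the 9, stayed within 1.5 times its main value, while some splits by direction moved more. Leaving out each library in turn gave 1406 to 2515 genes and 4 to 6 of the 9 genes called with siRNA, 7776 to 8449 and 6 to 7 in SK-N-SH CRISPRi, and 5149 to 5900 and 8 to 8 in SK-N-AS; the interaction with siRNA held 7 to 7 genes and that between lines 5 to 6. The calls lost were HYAL2 and VCAN with siRNA and HAS2 and HYAL2 in SK-N-SH CRISPRi, with the HYAL2 difference between the SK-N-SH experiments; the cause was not tested. Replicate numbers did not pair the libraries (r of same-numbered libraries -0.14 to 0.05, -0.02 to 0.02 and -0.03 to 0.00473, with 1 of 10, 2 of 6 and 1 of 8 nearest to their own number). With the replicate block 1532, 8460 and 5894 genes and 5, 7 and 8 of the 9 were called, without HYAL2 with siRNA (edgeR, adjusted p = 0.0579). DESeq2 called 6, 7 and 8 of the 9. Without siRNA knockdown replicate 4 and control replicate 5, 2204 genes and 6 of the 9 were called, and without knockdown replicate 3 as well, chosen after seeing the data, 2047 and 5. Depth limits HYAL1 and TNFAIP6 in SK-N-SH CRISPRi.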

Other observations

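CHTF8, the gene whose exons overlap HAS3 on the opposite strand, was counted very differently in the tables: 72.3 CPM in knockdown and 74.5 CPM in control libraries of the siRNA table, 3.32 and 3.37 CPM in that of SK-N-SH CRISPRi, and 0.843 and 0.591 CPM in that of SK-N-AS. HAS3 levels fall in the same order of tables, while its change was higher in knockdown in each.

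PTPRC (CD45), a surface phosphatase of blood cells, had 451 CPM in knockdown and 542 CPM in control libraries of SK-N-AS, while the other blood markers CD3E and HBB had 0 reads there and CD14 and CSF1R were under 1 CPM. In both SK-N-SH experiments PTPRC was under 1 CPM.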
